A study of Homo sapiens with 16 samples.

Results

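The transcripts described here are 10 genes of the integrated stress response: ATF4 itself, the transcription factors ATF3, ATF5 and DDIT3, the pseudokinase TRIB3, the stress effectors CHAC1 and SESN2, the enzyme ASNS, and the secreted proteins STC2 and INHBE. They were chosen by symbol as ATF4 and stress-induced targets other than transporters and enzymes of serine metabolism. All 10 were found among the 23230 gene symbols counted in every library. RNA-seq was made from 8 established blood cancer lines, each with 1 library for the peptide Y518R, which binds DPY30, and 1 for the peptide 3R, which does not, for 16 libraries in all. DPY30 is a subunit shared by the complexes that methylate lysine 4 of histone H3. The labels give 4 groups. MLL-fusion lines with Y518R, and the same lines with 3R, were MOLM13 and THP1 (both MLL-AF9), RS4-11 (MLL-AF4) and KOPN8 (MLL-ENL). The other lines with Y518R, and the same lines with 3R, were K562 (BCR-ABL), P493-6 (modelling Burkitt's lymphoma), RAJI (Burkitt's lymphoma) and JURKAT, from a T cell leukemia labelled as Myc dependent. All grew in Advanced RPMI with 2.5% fetal bovine serum. Neither peptide dose nor exposure time is given in the sources used here.

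The integrated stress response starts when a kinase phosphorylates the translation initiation factor eIF2, which slows protein synthesis overall while the ATF4 message is translated better. ATF4 protein then pairs with C/EBP factors and switches on genes for amino acid supply, redox balance and, under lasting stress, cell death. Starvation for amino acids, misfolded protein in the endoplasmic reticulum, mitochondrial damage and haem shortage all feed into it. ATF4 is controlled in large part at translation, so its mRNA need not follow its protein, and the mRNA of its targets is the usual readout.

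ATF4 and C/EBP pair on a composite DNA element, searched here as TGATGNAA and its reverse complement TTNCATCA, where N is any base. Promoter windows (RefSeq, GRCh38.p14, from 250 bases before the transcription start to 50 after it) were held for 9 of the 10 genes, in 17 windows, and INHBE had no entry. The element was in a window of 3 of those 9 genes, or 33.3%, against 4.46% of the 27305 symbols with a window. Counted by window it was in 3 of the 17, against 3.62% of all 35116 windows. A match is a stretch of letters and no evidence of binding. Only this motif was searched, so overlap with other motifs is not known. The windows with a match are shown because they hold the factor's textbook element, in capitals, 5′ to 3′ on the strand of the gene. Sequence outside the windows was not searched, so the other genes may carry the element there. ATF3, a stress-induced repressor, has it 191 bases before a start (chr1:212565157-212565456, plus strand), with 0 matches in its other window (chr1:212614768-212615067). CHAC1, which breaks down glutathione, has it on the opposite strand, 209 bases before its start (chr15:40953221-40953520, plus strand). ASNS, asparagine synthetase, has it 68 bases before a start (chr7:97872359-97872658, minus strand), with 0 matches in its other window (chr7:97872116-97872415).
ATF3: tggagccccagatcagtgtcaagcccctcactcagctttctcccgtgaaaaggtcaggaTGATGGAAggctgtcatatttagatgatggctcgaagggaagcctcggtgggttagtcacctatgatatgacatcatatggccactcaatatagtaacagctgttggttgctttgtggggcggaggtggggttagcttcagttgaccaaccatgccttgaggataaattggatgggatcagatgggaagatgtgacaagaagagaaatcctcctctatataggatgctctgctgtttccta
CHAC1: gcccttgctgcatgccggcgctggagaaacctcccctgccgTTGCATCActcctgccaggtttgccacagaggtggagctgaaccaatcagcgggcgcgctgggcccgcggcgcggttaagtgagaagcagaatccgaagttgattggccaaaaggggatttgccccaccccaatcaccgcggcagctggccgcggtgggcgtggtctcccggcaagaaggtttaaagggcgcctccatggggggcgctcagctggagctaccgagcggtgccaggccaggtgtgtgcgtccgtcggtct
ASNS: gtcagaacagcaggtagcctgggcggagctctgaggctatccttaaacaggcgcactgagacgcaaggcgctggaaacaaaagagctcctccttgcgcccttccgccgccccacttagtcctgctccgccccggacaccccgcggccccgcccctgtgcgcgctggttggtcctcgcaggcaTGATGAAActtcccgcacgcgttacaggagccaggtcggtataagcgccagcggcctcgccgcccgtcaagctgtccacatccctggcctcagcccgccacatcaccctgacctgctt

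Gene counts per library ran between 19354300 and 43003124. Levels are in CPM, counts divided by the TMM-scaled library total. The floor of 3 counts, the most that a listed 0 leaves room for, is 0.0697 to 0.156 CPM. This floor and the intervals below cover counting error only. Reads assigned to no gene made up 17.7% to 26.9% of reads in 15 libraries and 44.7% in RAJI 3R. Markers followed the labels: 5 of 5 B cell markers were at 10 CPM or more in both libraries of RS4-11, KOPN8, RAJI and P493-6, 5 of 5 T cell markers in JURKAT and 5 of 5 erythroid markers in K562. Monocytic markers reached that level for 3 of 6 in MOLM13 and THP1. HOXA9, HOXA10 and MEIS1, which MLL fusions drive, reached it for 3 of 3 in MOLM13, RS4-11 and KOPN8, 2 of 3 in THP1 and 0 of 3 in each other line. For 4 of the 10 genes counting is uncertain, since neither the strand setting nor the handling of copies is given in the sources used here. ATF4 and ASNS have 4 annotated pseudogenes each. The exons of DDIT3 overlap MARS on the opposite strand by 355 bases, and those of ATF5 overlap NUP62 by 626.

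ATF4 was the most abundant of the 10 per kilobase of exon in all 16 libraries, at 176 to 557 CPM per kilobase, against 8.32 to 222 for the next gene of the set in the same library. It was also the steadiest across lines. Taken as the mean of its 2 libraries, ATF4 stood at 1374 CPM in P493-6, 1081 in MOLM13, 962 in RS4-11, 897 in THP1, 652 in KOPN8, 585 in K562, 466 in JURKAT and 460.5 in RAJI, a 2.98-fold span. The 2 libraries of a line are 1 per peptide and not replicates, so their range includes the difference between peptides. These ranges overlapped for RS4-11 and THP1, THP1 and KOPN8, KOPN8 and K562, and JURKAT and RAJI. Whether such neighbours differ was not tested. The other genes spanned far more between the highest and the lowest line: 11.2-fold for ATF3, 21.3-fold for DDIT3, 22.7-fold for SESN2, 44.5-fold for ASNS, 46.9-fold for CHAC1, 52.4-fold for TRIB3 and 53.7-fold for ATF5. STC2 and INHBE fell near the counting floor in some lines. STC2 had 3 counts with Y518R and 1 with 3R in KOPN8, and 2 with Y518R and 3 with 3R in RAJI. INHBE had 4 counts with Y518R and 18 with 3R in JURKAT.

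For every gene the highest line was P493-6 or MOLM13. By the mean of the 2 libraries, P493-6 was highest for 7 of the 10 (ATF4, ATF3, ATF5, CHAC1, SESN2, ASNS and INHBE). MOLM13 was highest for the other 3 (DDIT3, TRIB3 and STC2). Ranges of these lines overlapped for ATF3, SESN2 and STC2. With 3R alone SESN2 was higher in MOLM13 (223 CPM) than in P493-6 (187). With Y518R alone STC2 was higher in P493-6 (97.4 CPM) than in MOLM13 (83.3). MOLM13 was first or second for all 10, and P493-6 for 8, as it ranked lower for TRIB3 (127 CPM) and DDIT3 (39.5 CPM). JURKAT and RAJI were each lowest for 4. INHBE, which encodes the activin beta E chain, averaged 221 CPM in P493-6, 65.2 in MOLM13, 16.9 in K562, 8.38 in THP1, 5.26 in RS4-11, 4.34 in RAJI, 1.31 in KOPN8 and 0.296 in JURKAT. TRIB3, which restrains ATF4 and AKT signalling, averaged 558 CPM in MOLM13 and at most 147 in any other line. Over the 70 pairs of neighbouring lines in these 10 orders, 27 had overlapping ranges of their Y518R and 3R libraries. Levels of any pair of the 10 genes were positively correlated across lines. Over 45 pairs the median Pearson r of log2(CPM + 1) was 0.74, from 0.41 to 0.93. The points are 8 lines that share their libraries between genes, and levels of other gene pairs were not compared.

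**Figure D1:**
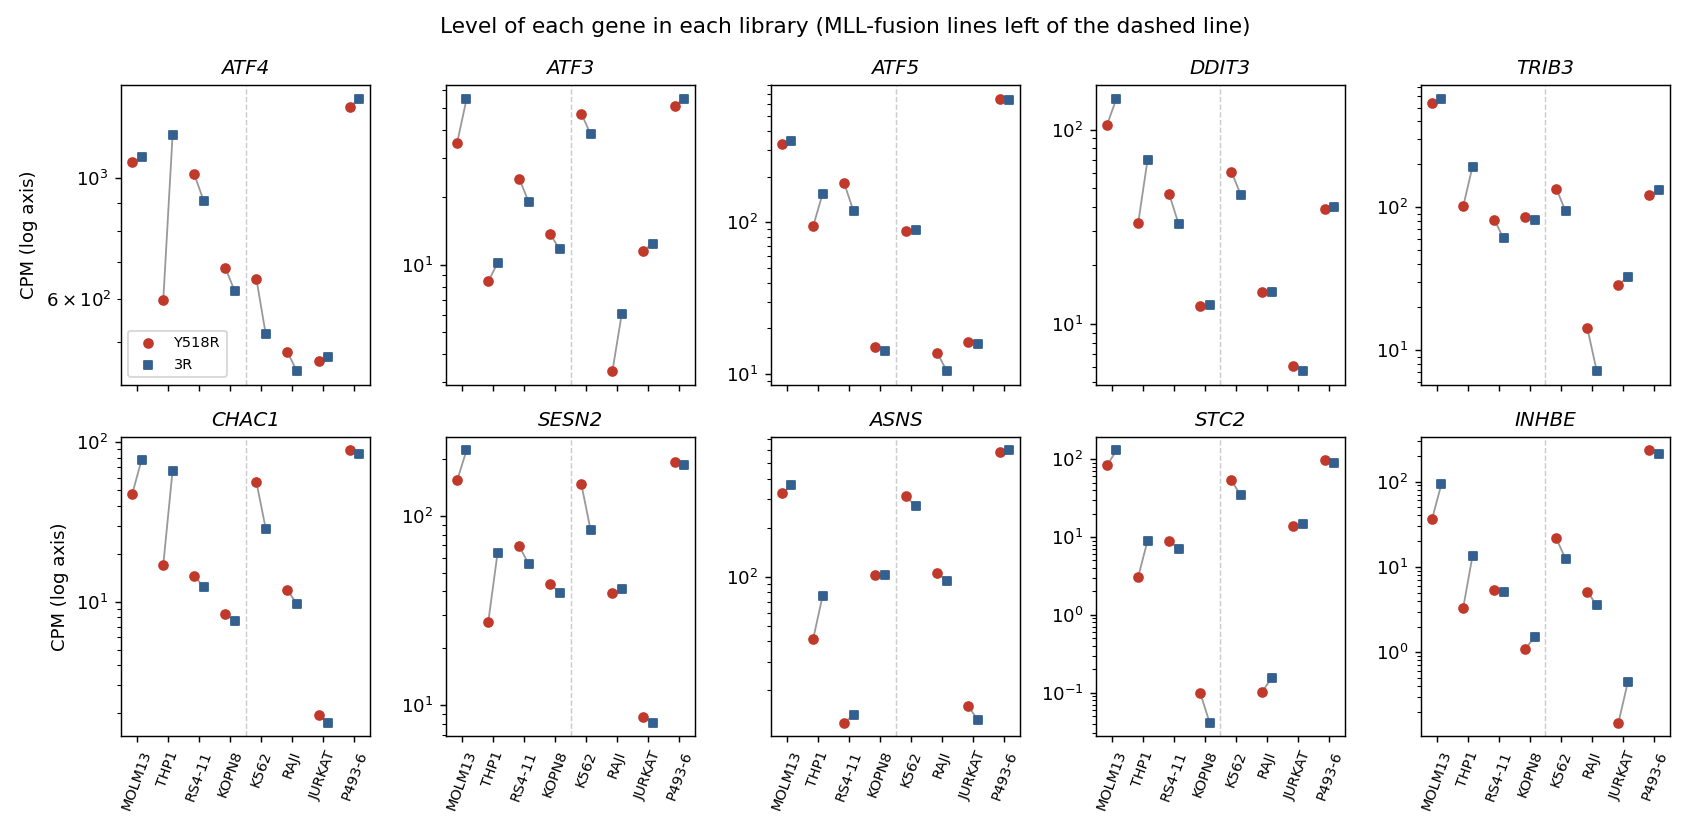
Level of each of the 10 genes in CPM (log axis) in each of the 16 libraries, with Y518R (red circles) left of 3R (blue squares) in each line and the MLL-fusion lines left of the dashed line. P493-6 or MOLM13 is the highest line for every gene, and Y518R lies below 3R for all 10 genes in THP1 and MOLM13.

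With the DPY30-binding peptide, the set went in different directions in different lines. All 10 genes were lower with Y518R in THP1 and in MOLM13, 9 of 10 were higher in K562 and in RS4-11, and the other 4 lines were mixed. With 1 library per peptide in a line there is no test within a line, so ratios are given with exact 95% counting intervals, and a gene counts as measured with 20 or more counts in at least 1 of the 2 libraries. These are bulk libraries, so less RNA per cell and fewer cells expressing a gene cannot be told apart. Ratios are Y518R over 3R on the log2 scale (TMM-scaled CPM, prior count of 2), and "past the fold" means at least 1.5-fold.

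In THP1 the median log2 ratio of the 10 genes was −1.04, with 9 past the fold downward, against 7.15% of the 13725 measured genes. Upward 0 were past it, against 10.3% of genes, and 47.8% of all measured genes were lower. In MOLM13 the median was −0.48, with 4 past the fold downward (8.18% of genes) and 0 upward (5.91%), and 53.6% of measured genes were lower. In K562 the median was 0.46, with 4 past the fold upward (4.62% of genes) and 0 downward (2.59%). Of measured genes there, 45.1% were lower. RS4-11 followed at 0.33, with 1 past the fold upward (2.65% of genes) and 0 downward (4.55%), and 50.3% of measured genes were lower. The remaining lines lay nearer 0. RAJI was at 0.17, with 1 of 9 measured past the fold upward (2.70% of genes) and 1 downward (9.23%). KOPN8 was at 0.096 with 0 of 9 past it either way (4.12% of genes lower, 3.03% higher), and JURKAT at 0.047 with 0 of 9 (4.77% lower, 2.29% higher). P493-6, the line with the highest levels, was at −0.0042 with 0 of 10 (3.22% lower, 3.97% higher). The median over all measured genes was between −0.032 and 0.025 in every line.

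**Figure D2:**
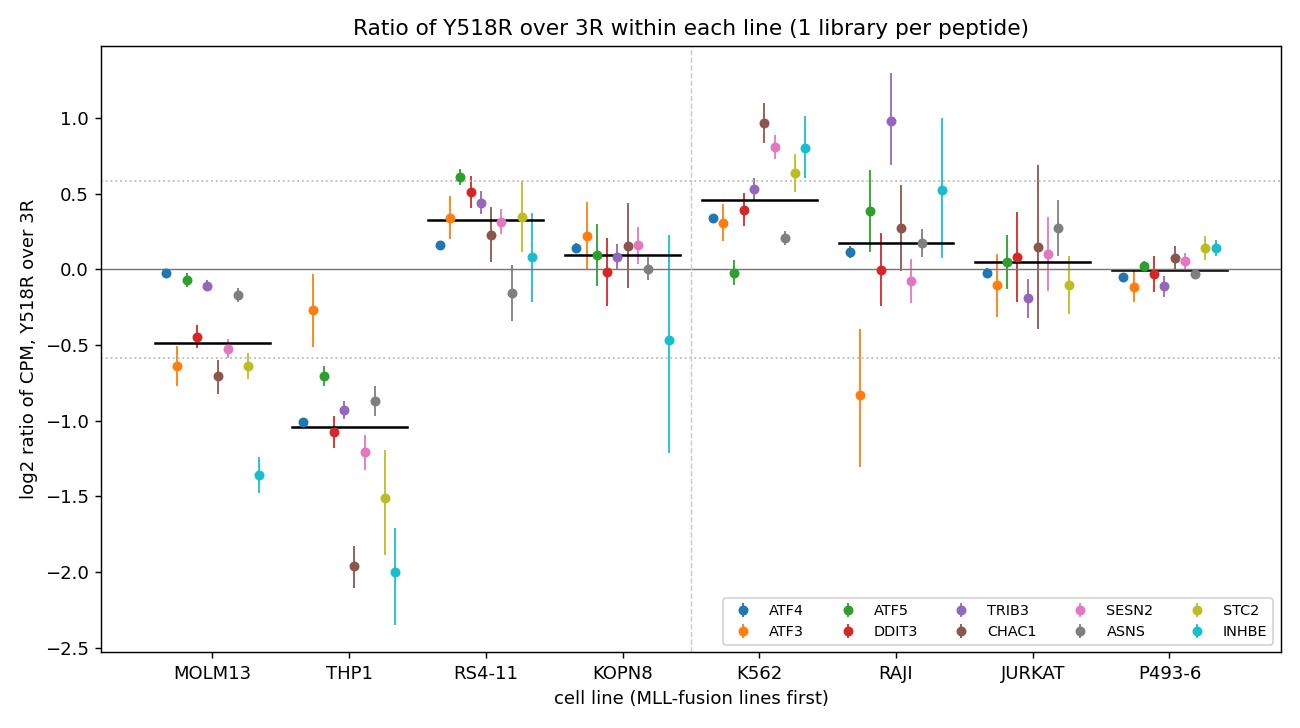
Log2 ratio of CPM, Y518R over 3R, of each measured gene (colours) within each line, with exact 95% counting intervals as bars, black lines at the median of the set and dotted lines at 1.5-fold either way. THP1 and MOLM13 lie wholly below 0, at medians of −1.04 and −0.48, and K562 is highest at 0.46.

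ATF4 itself, the transcription factor at the head of the response, was at 596 CPM with Y518R and 1198 with 3R in THP1, a ratio of −1.01 (95% −1.03 to −0.98) or 49.8% of the 3R level. In MOLM13 it was at 1071 CPM with Y518R and 1092 with 3R (−0.03). It was at 1016 with Y518R and 909 with 3R in RS4-11, and at 684 with Y518R and 619.9 with 3R in KOPN8. Among MLL-fusion lines THP1 thus stood alone for ATF4. In K562 it was at 653 CPM with Y518R and 517 with 3R (0.34), and in RAJI at 479 with Y518R and 442 with 3R. JURKAT had 462 CPM with Y518R and 469.7 with 3R, and P493-6 had 1349 with Y518R and 1400.0 with 3R. Libraries of the 2 peptides overlapped across lines in both classes.

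The induced transcription factors differed among themselves. DDIT3 (CHOP), which drives the death programme of lasting stress, was at 33.0 CPM with Y518R and 69.6 with 3R in THP1 (−1.07), and at 106 with Y518R and 144 with 3R in MOLM13 (−0.44). It was higher with Y518R in RS4-11, at 46.4 CPM against 32.6 with 3R (0.51), and in K562, at 60.8 against 46.2 with 3R (0.39). KOPN8, RAJI, JURKAT and P493-6 had DDIT3 ratios of −0.02, −0.0019, 0.08 and −0.03, with intervals that span 0. ATF5, a factor of the mitochondrial stress response, was at 94.4 CPM with Y518R and 154 with 3R in THP1 (−0.70). The reverse held in RS4-11, where ATF5 was at 180.4 CPM with Y518R and 118 with 3R, its one ratio past the fold upward (0.61). In MOLM13 and K562, ATF5 ratios were −0.07 and −0.02.

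ATF3, which binds CRE sites and dampens the response, went with most of the set in RS4-11, at 24.2 CPM with Y518R and 19.1 with 3R (0.34), and in K562, at 47.1 with Y518R and 38.1 with 3R (0.31). It was among the less lowered genes in THP1, at 8.43 CPM with Y518R and 10.2 with 3R (−0.27), and the 1 gene there short of 1.5-fold. MOLM13 had 35.0 CPM of ATF3 with Y518R and 54.6 with 3R (−0.64). In RAJI it was at 3.37 CPM with Y518R and 6.04 with 3R (−0.83, 95% −1.30 to −0.39), the set's one ratio past the fold downward outside THP1 and MOLM13. That RAJI pair includes the 3R library with 44.7% of reads in no gene, whose part in the value was not tested. TRIB3 went the other way in the same pair, at 14.2 CPM with Y518R and 7.14 with 3R (0.98). TRIB3 was at 101 CPM with Y518R and 193 with 3R in THP1 (−0.93), but at 537 with Y518R and 578 with 3R in MOLM13 (−0.11). K562 had 135 CPM of TRIB3 with Y518R and 93.5 with 3R (0.53).

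The effector genes CHAC1 and SESN2 had ratios past the fold in both directions. CHAC1, the glutathione-degrading enzyme, was at 17.0 CPM with Y518R and 66.3 with 3R in THP1, which is −1.96 (95% −2.10 to −1.83) or 25.7% of the 3R level. In MOLM13 it was at 47.2 CPM with Y518R and 77.2 with 3R (−0.71), and in RS4-11 at 14.5 with Y518R and 12.4 with 3R (0.23). KOPN8 had 8.42 CPM of CHAC1 with Y518R and 7.55 with 3R (0.16). All 4 other lines were higher: K562 at 56.2 CPM with Y518R and 28.7 with 3R (0.97), RAJI at 11.8 with Y518R and 9.74 with 3R, JURKAT at 1.94 with Y518R and 1.75 with 3R, and P493-6 at 88.7 with Y518R and 84.3 with 3R. The intervals of RAJI, JURKAT and P493-6 reach 0, so those ratios are within counting error. SESN2, a sestrin that restrains mTORC1 when leucine is short, was at 27.6 CPM with Y518R and 63.8 with 3R in THP1 (−1.21), and at 155 with Y518R and 223 with 3R in MOLM13 (−0.53). K562 was opposite, at 147 CPM with Y518R and 84.0 with 3R (0.81).

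ASNS, which makes asparagine, had ratios nearer 0 than CHAC1 and SESN2 in THP1, MOLM13 and K562, and the highest of the set in JURKAT. It was at 41.5 CPM with Y518R and 75.8 with 3R in THP1 (−0.87), at 325 with Y518R and 366 with 3R in MOLM13 (−0.17), at 12.6 with Y518R and 14.0 with 3R in RS4-11 (−0.15), and at 103 with both peptides in KOPN8 (0.0037). In K562 it was at 312 CPM with Y518R and 271 with 3R (0.20), in RAJI at 106 with Y518R and 93.9 with 3R (0.17), in JURKAT at 15.9 with Y518R and 13.1 with 3R (0.27), and in P493-6 at 586 with Y518R and 599.6 with 3R (−0.03). The counting interval of ASNS lay above 0 in no MLL-fusion line and in 3 of 4 other lines, and each difference outside THP1 was below 1.5-fold.

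The secreted proteins followed the effectors. INHBE was at 3.31 CPM with Y518R and 13.4 with 3R in THP1 (−2.00, 95% −2.35 to −1.71), at 25.0% of the 3R level. In MOLM13, where it is abundant, it was at 36.6 CPM with Y518R and 93.8 with 3R (−1.36, 95% −1.48 to −1.24). RS4-11 had 5.40 CPM of INHBE with Y518R and 5.11 with 3R (0.08), and KOPN8 had 1.09 with Y518R and 1.53 with 3R (−0.47, 95% −1.21 to 0.23). INHBE was the lowest measured ratio of the set in both MLL-AF9 lines and in KOPN8, where its interval spans 0. In THP1 its interval overlapped that of CHAC1 (95% −2.10 to −1.83). It was at 21.5 CPM with Y518R and 12.3 with 3R in K562 (0.80), at 5.13 with Y518R and 3.54 with 3R in RAJI (0.53), and at 232 with Y518R and 210.3 with 3R in P493-6 (0.14). STC2, stanniocalcin 2, was at 3.08 CPM with Y518R and 8.93 with 3R in THP1 (−1.51), at 83.3 with Y518R and 129.5 with 3R in MOLM13 (−0.64), and at 53.3 with Y518R and 34.3 with 3R in K562 (0.63). Its other measured lines ranged from −0.10 in JURKAT to 0.35 in RS4-11.

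THP1 also differed between peptides in the list of monocytic markers, whose genes went both ways. The list includes the granule genes ELANE and MPO, which are not particular to monocytes. Its sum, to which ELANE gave the most, was 1710 CPM with Y518R and 2591 with 3R. Of its 6 genes, ELANE (1013 CPM with Y518R and 1738 with 3R), LYZ (519 with Y518R and 746 with 3R) and MPO (5.68 with Y518R and 13.6 with 3R) were lower. CSF1R (155 with Y518R and 90.0 with 3R) and CD14 (17.4 with Y518R and 4.26 with 3R) were higher, and FCN1 was at or under the floor in both libraries. In MOLM13, where the set was also lower, the sum was 1213 CPM with Y518R and 972 with 3R. The part of these markers in the ratios was not tested.

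The labels divide the lines by fusion, and the comparison across lines asks whether the peptide change is shared within a class. Counts were fitted with edgeR's quasi-likelihood test with cell line as a block, and a call needs an adjusted p under 0.05 over all 13043 tested genes. Each line gave 1 library per peptide, so the p-values reflect how far these lines differ from each other, which may in part be technical. In the fit over the MLL-fusion lines all 10 genes had negative changes, as did 50.1% of all tested genes. Their median log2 change was −0.28, and 0 of 10 were called, where 0% of all genes were. The direction was not shared by all 4 lines: 9 of 10 genes were higher in RS4-11 and 7 of 9 measured in KOPN8. The 10 genes come from the same libraries and are not separate observations. INHBE was at −1.04 ± 0.27 (SE; lower in 3 of 4 lines; edgeR adjusted p = 0.84), CHAC1 at −0.61 ± 0.28 (lower in 2 of 4), STC2 at −0.54 ± 0.25 (2 of 4) and ASNS at −0.30 ± 0.12 (3 of 4). These 4 had unadjusted p under 0.05, as did 762 genes in all. ATF4 was at −0.18 ± 0.15 and ATF5 at −0.02 ± 0.15. Without THP1 the median was −0.033, ATF4, ATF5, DDIT3 and TRIB3 were above 0, and CHAC1 was at −0.14, STC2 at −0.18 and ASNS at −0.11. Without RS4-11 the median was −0.43 and STC2 was at −0.97. INHBE ran from −1.45 without RS4-11 to −0.72 without THP1.

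In the other lines 9 of 10 changes were positive, with a median of 0.19, where 51.9% of all tested genes were negative. Again 0 of 10 were called, where 0% of all genes were (202 genes had unadjusted p under 0.05, none of them in the set). CHAC1 was at 0.40 ± 0.29 and higher in 4 of 4 lines, INHBE at 0.38 ± 0.28, TRIB3 at 0.24 ± 0.20, and ATF3, the exception, at −0.12 ± 0.18. Without K562 the median was 0.079, CHAC1 and INHBE were both at 0.16 and ATF3 at −0.29. TRIB3 was at 0.083 without RAJI, 0.14 without K562, 0.38 without P493-6 and 0.40 without JURKAT, and ATF3 was at 0.037 without RAJI. Over all 8 lines the median was −0.078 and 8 of 10 were negative, as were 51.7% of all tested genes. None of the 10 passed an unadjusted p of 0.05 (394 genes did), and 0 of 10 were called, where 0% of all genes were. That median was −0.16 without K562, −0.14 without RS4-11, −0.020 without MOLM13 and 0.081 without THP1.

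The difference between classes was tested directly as the change in MLL-fusion lines minus that in other lines. It was negative for 9 of 10, with a median of −0.42, and for 47.8% of all tested genes. Of the set 0 of 10 were called, where 0% of all genes were. INHBE was at −1.42 ± 0.39, CHAC1 at −1.005 ± 0.40, STC2 at −0.77 ± 0.34 and ASNS at −0.45 ± 0.16. These 4 again had unadjusted p under 0.05, as did 494 genes in all, and every adjusted p was 0.999. ATF3 was at 0.03 ± 0.25. Without THP1 the median was −0.18, with CHAC1 at −0.55, STC2 at −0.41 and ASNS at −0.26. STC2 was at −1.19 without RS4-11. INHBE was the one gene of the set that another procedure called. Its change in MLL-fusion lines was −1.21 with limma-voom (adjusted p = 0.0371) and −1.04 with no filter on low counts (adjusted p = 0.0024), and its class difference was −1.42 with no filter (adjusted p = 0.00938). In all, limma-voom called 20 genes in MLL-fusion lines, and the fit with no filter called 52 there and 9 for the class difference. DESeq2 called none of the 10. Over all alternatives INHBE's adjusted p ran from 0.0024 to 1 in MLL-fusion lines and from 0.00938 to 1 for the class difference.

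**Figure D3:**
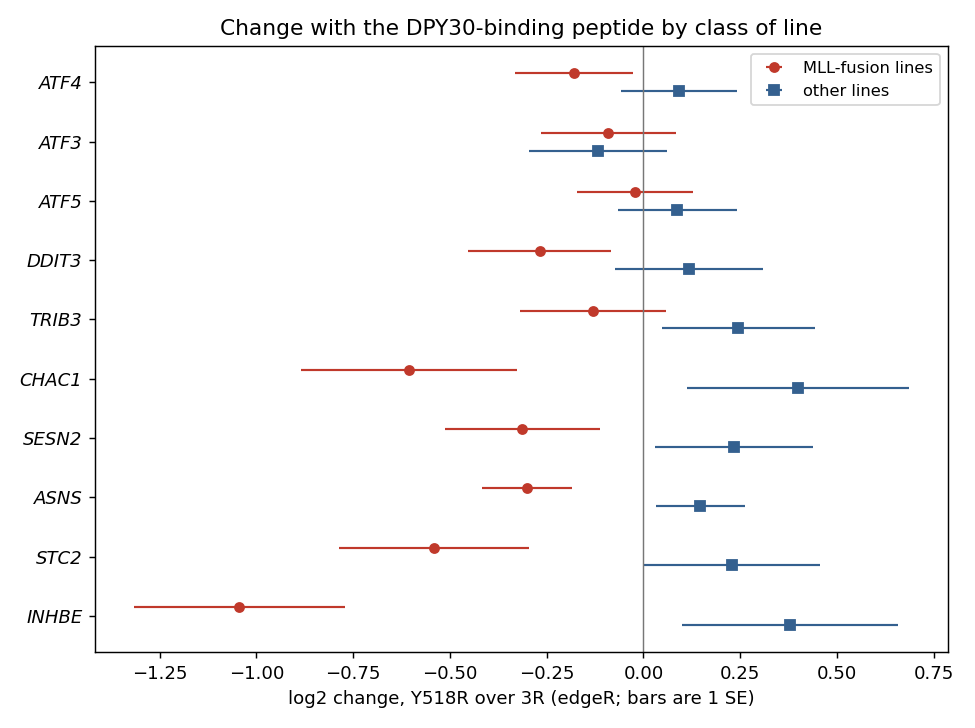
Log2 change of each gene, Y518R over 3R, fitted with edgeR over the 4 MLL-fusion lines (red circles) and the 4 other lines (blue squares), with 1 SE as bars. All 10 points of the MLL-fusion lines are below 0 and 9 of 10 of the other lines above it, and none was called. Lines within a class differed: RS4-11 and KOPN8 had median ratios above 0 (0.33 and 0.096). Among the other lines K562 was at 0.46 and P493-6 at −0.0042. Without THP1 the median change in MLL-fusion lines was −0.033.

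The level of the set without the binding peptide was compared between MLL-fusion and other lines in the 3R libraries. Of the set, 0 of 10 were called, where 0.0534% of 13107 genes were (7 genes). TRIB3 had the largest difference, at 578, 193, 60.5 and 81.0 CPM in MOLM13, THP1, RS4-11 and KOPN8, against 93.5, 7.14, 32.6 and 132 CPM in K562, RAJI, JURKAT and P493-6. That is 1.798 ± 0.99 on the log2 scale (SE; edgeR adjusted p = 0.576), and the groups overlap. DDIT3 was at 144, 69.6, 32.6 and 12.5 CPM in the MLL-fusion lines and 46.2, 14.6, 5.72 and 39.9 in the others (1.30 ± 0.86). INHBE and ASNS had the opposite sign, at −0.97 ± 1.78 and −0.79 ± 1.16, and without P493-6 they were at 2.39 and 0.15. The median over the set was 0.18, and single lines decided it: it was −0.77 without MOLM13, 1.35 without P493-6, 0.51 without KOPN8, 0.48 without RS4-11, −0.14 without RAJI and −0.11 without JURKAT. It was also −0.41 in the Y518R libraries and 0.65 with limma-voom.

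The ratios of the set were mostly positively correlated over lines. Pairs of other genes were not compared, so the likeness cannot be called particular to the set. Over 45 pairs of genes the median Pearson r of their log2 ratios was 0.82 and 44 were above 0, with 5 to 8 lines as points that share the same libraries. The 9 pairs of ATF3 had a median of 0.28, from −0.02 with TRIB3 to 0.72 with STC2, while the 36 pairs without ATF3 ran from 0.65 to 0.99. CHAC1 with SESN2 reached 0.97, and ATF4 with CHAC1 0.94. THP1 weighs on these values. Without it the median over all pairs was 0.61, from −0.20 for ATF5 with ASNS to 0.98 for STC2 with INHBE (over 4 lines), and the ATF4 pairs had a median of 0.65 in place of 0.88. The pairs of ATF3 were then at a median of 0.51, against 0.63 for the pairs without it. CHAC1 with SESN2 was 0.94 without THP1.

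**Figure D4:**
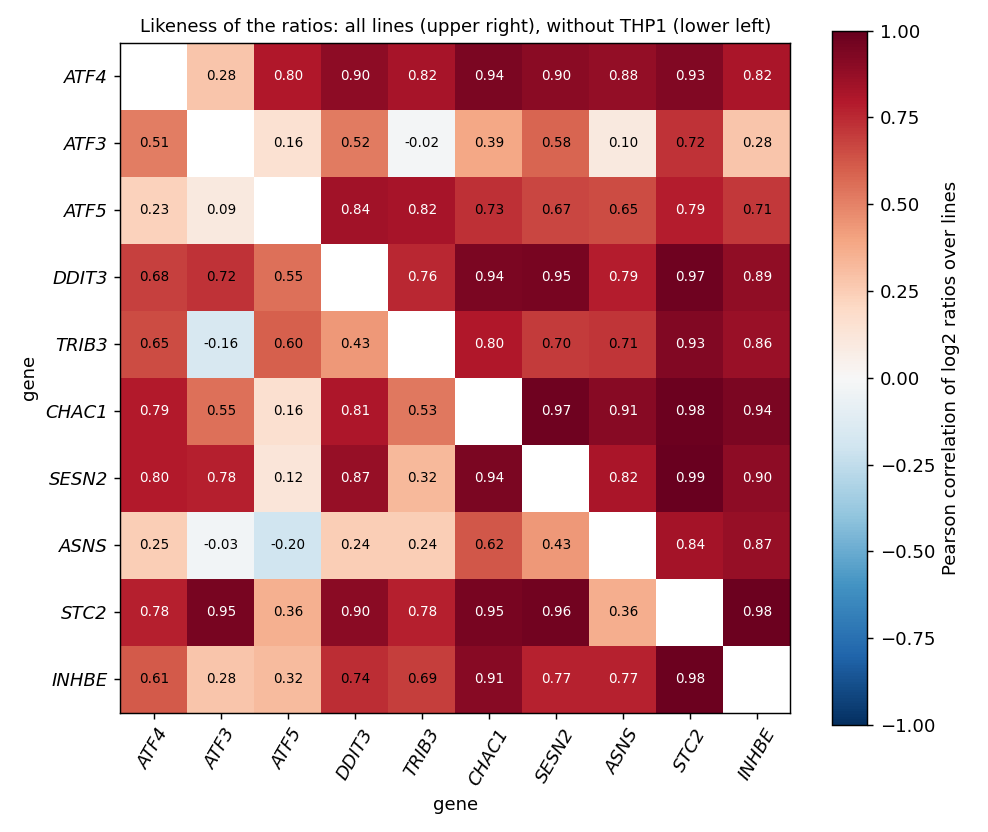
Pearson correlation of log2 ratios (Y518R over 3R) between genes, over the lines in which both were measured, with all lines in the upper right and without THP1 in the lower left. With all lines the pairs of ATF3 have a median of 0.28, and without THP1 the pairs among CHAC1, SESN2, STC2 and INHBE stay dark, between 0.77 and 0.98.

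Other lists of the same response were compared within lines. In THP1 the set's low ratios were shared by 11 of 11 measured amino acid transporters (median −0.55), 12 of 12 aminoacyl-tRNA synthetases (−0.54), 8 of 11 serine and one-carbon enzymes (−0.75) and 17 of 21 other ATF4 targets (−0.60). In MOLM13 they were shared by 10 of 11 transporters (−0.10) and 17 of 21 other targets (−0.34), but the synthetases (4 of 12 lower, 0.096) and serine enzymes (4 of 11 lower, 0.089) lay above 0. K562 was higher for 11 of 11 transporters (0.30) and 17 of 19 other targets (0.25). In the fits 0 genes of these lists were called in any comparison. The transporters had negative fitted changes for 11 of 11 in MLL-fusion lines (median −0.13), where 50.1% of all tested genes did. They were positive for 11 of 11 in the other lines (0.15), where 51.9% of all tested genes were negative. Lines within a class differed: among MLL-fusion lines, 10 of 12 transporters were higher in RS4-11 and 7 of 12 in KOPN8. Among the others, 9 of 11 were higher in RAJI, but 7 of 11 were lower in JURKAT and 6 of 11 in P493-6. SLC7A11, the cystine carrier, had 930 counts with Y518R and 3973 with 3R in THP1 (−2.03), close to INHBE and CHAC1. ALDH1L2, a mitochondrial folate enzyme, was at −0.73 ± 0.20 in MLL-fusion lines and lower in 4 of 4, though RS4-11 and KOPN8 had 15 counts or fewer.

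Upstream regulators and the parallel branches of the stress response had medians near 0 in these lines. The kinases of eIF2 and their regulators had a median of −0.02 in THP1 and −0.08 in MOLM13, with 7 of 15 positive in MLL-fusion lines. Within them EIF2AK2 (PKR), an interferon-induced kinase of eIF2, was higher with Y518R in THP1, at 3197 counts against 1554 with 3R (1.10), and lower in MOLM13, at 263 counts with Y518R and 409 with 3R (−0.47). EIF2AK3 (PERK) was at 0.30 in THP1 and −0.21 in MOLM13. PPP1R15B, a phosphatase subunit that resets eIF2, was at −0.29 ± 0.09 in MLL-fusion lines and lower in 4 of 4 (edgeR adjusted p = 0.84). The 20 genes of the ATF6 and XBP1 branches, which answer misfolded protein, were split, with 10 positive in MLL-fusion lines (median 0.0050) and a median of −0.03 in THP1. HSPA5 (BiP), their main chaperone, was at 0.09 in THP1, where DDIT3 was at −1.07, and at −0.33 in MOLM13. Among C/EBP partners in THP1, CEBPB was at −0.60, CEBPG at −0.27 and CEBPD at −0.75, while CEBPA was at 0.07 and CEBPE at 0.23. Targets of p53, which also induces sestrins, were higher for 10 of 14 in THP1 (0.33), where 47.8% of all measured genes were lower. The part of p53 in these ratios was not tested. SESN1, the p53-responsive relative of SESN2, was at −0.18 there. CHAC2, the constitutive relative of CHAC1, was at −0.39 in THP1 against −1.96 for CHAC1, and −0.13 in MOLM13 against −0.71.

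**Figure D5:**
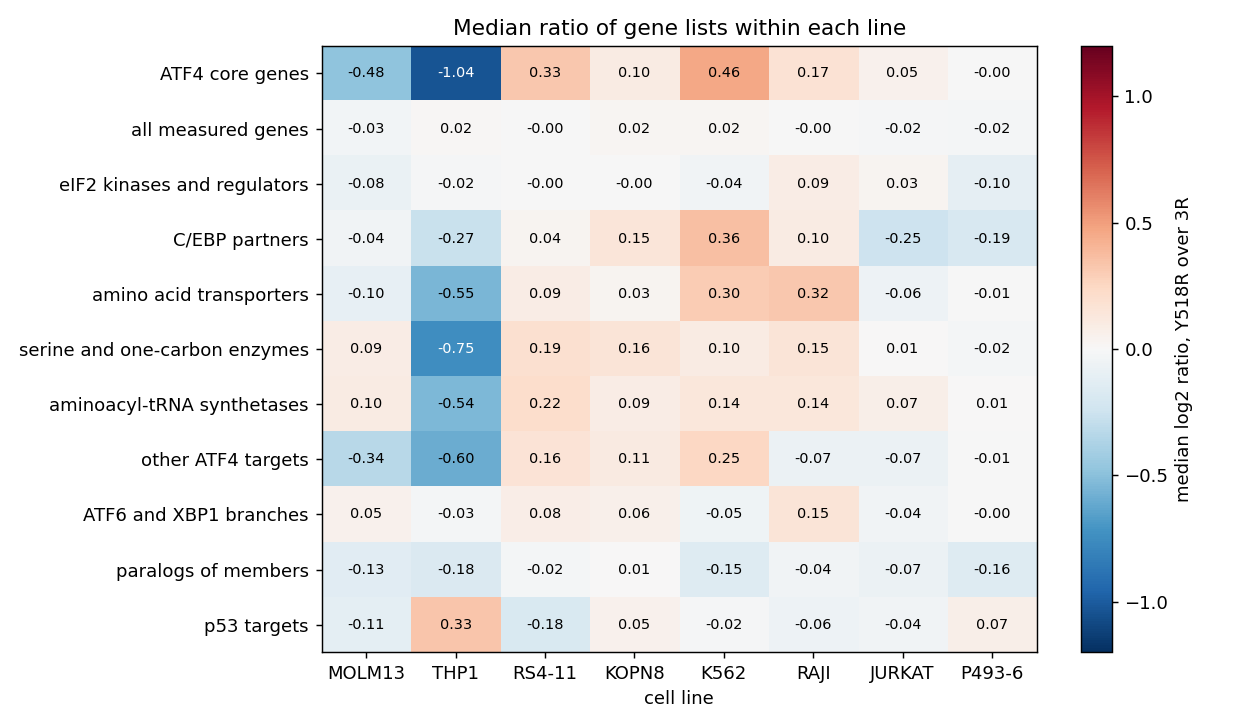
Median log2 ratio (Y518R over 3R) of each gene list within each line, with the 10 genes in the top row and all measured genes in the second. The top row runs from −1.04 in THP1 to 0.46 in K562, and the eIF2 regulators and the ATF6 and XBP1 branches stay between −0.10 and 0.15 in every line.

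Outside these lists, genes whose log2 ratios over the 8 lines were among the most like the set's median, among 11203 with a mean of 100 counts or more, were FYN (r = 0.98; −1.25 in THP1 and −0.64 in MOLM13), PXK, SLC4A5 and SOX4, down to r = 0.96. Those most like ATF4 were PGD (r = 0.98, and −0.67 in THP1), PPIH, SLC44A1, TIMM44 and RAB37. THP1 weighs on these r: without it they were 0.80, 0.78, 0.61, 0.68 and 0.89 in the same order. For FYN, PXK, SLC4A5 and SOX4 they were 0.94, 0.93, 0.93 and 0.88 without THP1. Picked as the highest of so many over 8 points, these values describe likeness in these libraries only.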

How the data were processed

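Counts deposited by the authors are whole numbers of reads per gene symbol, not normalized, for 1 library per line and peptide. Per the submitters' processing notes the tools were HTSeq 0.6.1, TopHat2 2.1.1, CASAVA 1.8.4, DESeq and DESeq2 3.0, and the builds hg19 and GRCh38, with no word on which served these counts. Each file's 5 summary entries (reads in no gene or several) were removed before library sizes were taken.

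The 10 genes, the lists and the tests were chosen with earlier results of these data known. Counts were tested in R 4.3.3 with edgeR 4.0.16 (quasi-likelihood, TMM, filterByExpr at a minimum count of 10, Benjamini-Hochberg), with cell line as a block in all 16 libraries for the peptide and none in the 8 libraries for the comparison of classes with 3R. The SE was taken as the size of the log2 change over the root of the F statistic. The code was tested on simulated data. Pairing came from the labels' cell lines: all 16 libraries matched the other library of their line best (Spearman 0.988 to 0.997 within lines, at most 0.883 between). Lengths are unions of exons in GENCODE. Named genes were all 10 of the set, up to 3 per list and comparison by lowest p, and the 5 most alike, of which 1 is not reported here; other list genes were named after their values were seen. Alternatives were DESeq2 1.42.0 and its size factors, limma-voom 3.58.1, no filter, no block, a prior count of 0.5, and fits without single lines or without RAJI and THP1.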

Additional observations from a re-analysis of the deposited data

Results flagged for a closer look

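Of 67 sets of values searched for a sample far from the others (Dixon's criterion, which chance meets in about 1 set in 20, or 3.35 here), 5 met it. The ATF4 ratio of THP1, −1.01, stood apart both among all 8 lines and among the 4 MLL-fusion lines. The ASNS ratio of THP1, −0.87, stood apart among all 8 lines. The ATF4 level of P493-6 with 3R, 10.45 as log2(CPM + 1), was far above the other 3R libraries of lines without an MLL fusion. The TRIB3 level of MOLM13 with Y518R, 9.07 on the same scale, was far above the other MLL-fusion libraries with Y518R.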

How the results depend on the processing

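Counts of called genes moved with the procedure. With no filter on low counts they were 3 over all 8 lines, 52 in MLL-fusion lines, 1 in other lines and 9 for the class difference. DESeq2 gave 1 in MLL-fusion lines, 2 for the class difference and 477 between classes with 3R. Limma-voom gave 1, 20 and 2 over all 8, MLL-fusion and other lines, 2 for the class difference and 4 between classes. The Y518R libraries gave 4 between classes, and without RAJI and THP1 it was 1. Leaving out single lines gave 0 to 3 in MLL-fusion lines, 0 to 1 for the class difference and 4 to 11 between classes. The cause was not tested.

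Of 700 changes of the 10 genes over all alternatives, 636 kept their sign, 64 did not and 3 were called, all 3 of INHBE. Signs turned with limma-voom for ATF5 (−0.00063) and TRIB3 (−0.027) over all 8 lines, ATF3 in other lines (0.015) and for the class difference (−0.14), and ATF5 (0.79), STC2 (−1.30) and INHBE (0.54) between classes with 3R. With no replicate block (lines not paired) they turned for ATF3 in other lines (0.022) and for the class difference (−0.26). With the Y518R libraries CHAC1 (−0.83), SESN2 (−0.37) and STC2 (−0.73) turned between classes. With both RAJI and THP1 left out, signs turned over the remaining lines for ATF4 (0.090), ATF3 (0.0012), DDIT3 (0.084), CHAC1 (0.14), SESN2 (0.15), ASNS (0.018) and STC2 (0.075). They also turned for ATF4 (0.091), ATF5 (0.23), DDIT3 (0.012) and TRIB3 (0.13) in MLL-fusion lines, ATF3 (0.038) in other lines, ATF4 (0.0019), ATF3 (−0.074), ATF5 (0.21) and TRIB3 (0.048) for the class difference, and CHAC1 (−0.22) between classes with 3R.

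Leaving out single lines, changes crossed 0 over all 8 lines for ATF4 (−0.095 to 0.091), ATF5 (−0.059 to 0.14), DDIT3 (−0.17 to 0.071), TRIB3 (−0.039 to 0.19), CHAC1 (−0.30 to 0.16), SESN2 (−0.17 to 0.12), ASNS (−0.11 to 0.038) and STC2 (−0.30 to 0.071). In MLL-fusion lines they did for ATF4 (−0.30 to 0.088), ATF3 (−0.24 to 0.10), ATF5 (−0.25 to 0.22), DDIT3 (−0.54 to 0.0097) and TRIB3 (−0.32 to 0.13), in other lines for ATF3 (−0.29 to 0.037), and for the class difference for ATF3 (−0.13 to 0.22) and ATF5 (−0.33 to 0.14). Between classes with 3R they did for ATF3 (−1.02 to 0.34), ATF5 (−0.97 to 2.03), CHAC1 (−0.085 to 1.61), SESN2 (−0.58 to 1.10), ASNS (−1.91 to 0.15), STC2 (−2.66 to 1.15) and INHBE (−3.05 to 2.39). With DESeq2 size factors no sign turned, and the 154 recomputed ratios within lines (other size factors or a prior count of 0.5) all moved by less than their counting intervals. Depth limits STC2 in KOPN8 and RAJI and INHBE in JURKAT, which were left out of the ratios within lines.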
